A study of Homo sapiens with 12 samples.

Results

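The AP-1 transcription factor genes and their companion immediate early genes were followed in Cal33 tumours, grown as xenografts from a human line of squamous carcinoma of the head and neck, in which the TEAD transcription factors had been inhibited in 2 ways. The set holds the FOS family (FOS, FOSB, FOSL1 and FOSL2), the JUN family (JUN, JUNB and JUND), the zinc finger factor gene EGR1 and the immediate early response genes IER2 and IER3. Members were found by their Ensembl IDs, and all 10 of them had a row in both deposited count tables, out of 60649 gene IDs listed in each. TEAD proteins are the DNA-binding partners of the co-activators YAP and TAZ, and the study asks what interrupting that partnership does to this cancer. Gene expression was measured by RNA-seq of poly-T selected RNA in 12 tumour libraries, 3 in each of 4 groups. The smTEADi tumours were treated with SW-682, a small molecule TEAD inhibitor, and their Vehicle tumours received vehicle. The pTEADi tumours were exposed to doxycycline (DOX+) to switch on an inhibitor named pTEADi, and their Control tumours were left without it (DOX-). All 4 groups share the Cal33 background and growth as a cell line-derived xenograft (CDX) in a host, so each tumour held human cancer cells beside host tissue. Because only the pTEADi tumours received doxycycline, effects of the drug itself and of the inhibitor cannot be told apart. The labels give no dose, duration or number of animals, and nothing in them ties a sample to its own animal, so the p-values speak only of the spread among these libraries, which may be technical.

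AP-1 is a dimer of leucine zipper proteins, usually one from the FOS family and one from the JUN family, which binds a short palindromic DNA site. Immediate early genes are transcribed within minutes of a stimulus without new protein synthesis, mainly through MAP kinases that activate serum response factor with its ternary complex partners and the CREB and ATF factors. FOSL1 (FRA-1) and FOSL2 (FRA-2) are the longer-lived FOS family members and are prominent in squamous epithelium and carcinoma, where AP-1 and TEAD occupy many enhancers together.

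Promoter sequences were taken from the RefSeq promoter table (GRCh38.p14, 250 bases before to 50 bases after the gene start), which matched 8 of the 10 members; FOSL1 and IER3 are named only. The 4 sequences shown belong to the matched members that fell in pTEADi tumours. Each holds a match to some kind of short site through which immediate early genes are known to be switched. Such matches were not particular to these genes, as FOSB and JUND, which did not pass, hold TGACGT too. Capitals mark the letters of a match on either strand to TGACGT (the core of the CRE, bound by CREB and ATF factors), TGACTCA (the AP-1 site), TGACATCA (a variant AP-1 site) or the CArG box, the site of serum response factor.
FOS, chr14:75278578-75278877, plus strand: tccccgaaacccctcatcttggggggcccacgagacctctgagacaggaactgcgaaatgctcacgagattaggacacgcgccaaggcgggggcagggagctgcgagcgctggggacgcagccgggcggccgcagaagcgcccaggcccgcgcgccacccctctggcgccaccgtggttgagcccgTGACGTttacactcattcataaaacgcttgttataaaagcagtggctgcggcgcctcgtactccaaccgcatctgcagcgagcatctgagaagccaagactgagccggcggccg
FOSL2, chr2:28392608-28392907, plus strand: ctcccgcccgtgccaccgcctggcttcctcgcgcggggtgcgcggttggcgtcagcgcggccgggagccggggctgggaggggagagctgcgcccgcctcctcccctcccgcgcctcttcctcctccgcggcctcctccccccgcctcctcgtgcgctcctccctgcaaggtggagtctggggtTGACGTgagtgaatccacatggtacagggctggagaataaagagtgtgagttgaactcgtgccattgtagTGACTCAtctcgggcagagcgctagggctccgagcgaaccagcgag
JUN, chr1:58783998-58784297, minus strand: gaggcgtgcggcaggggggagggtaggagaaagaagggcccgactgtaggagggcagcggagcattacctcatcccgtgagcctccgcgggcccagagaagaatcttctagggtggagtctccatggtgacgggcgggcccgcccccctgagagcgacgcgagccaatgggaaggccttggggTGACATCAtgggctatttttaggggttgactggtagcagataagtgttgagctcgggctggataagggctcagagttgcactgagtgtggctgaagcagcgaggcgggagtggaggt
EGR1, chr5:138465229-138465528, plus strand: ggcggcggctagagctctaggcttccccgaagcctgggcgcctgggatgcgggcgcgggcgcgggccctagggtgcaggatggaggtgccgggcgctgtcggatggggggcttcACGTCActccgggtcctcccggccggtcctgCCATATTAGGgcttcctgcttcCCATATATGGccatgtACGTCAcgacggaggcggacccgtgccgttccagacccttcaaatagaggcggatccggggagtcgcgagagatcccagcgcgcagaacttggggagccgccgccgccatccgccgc
TGACGT stood in 5 of the 8 promoters (FOS, FOSB, FOSL2, JUND and EGR1), against 7.98% of all 35116 promoters of the same length in the table. In FOS it lay 64 to 59 bases before the gene start. TGACATCA was found in JUN, 67 to 60 bases before the start, and in 2.61% of all promoters. TGACTCA was found in FOSL2, just after the start, and in 4.95% of all promoters. EGR1 held 2 CArG boxes, a site present in 1.29% of all promoters. Neither CATTCC, the core of a TEAD site (14.0% of all promoters), nor the EGR site GCGTGGGCG (0.795%) was among the letters of the 8 windows on either strand. These matches describe the letters of the windows only.

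Library totals were 13576494 to 15433679 expected counts, and every member had 37 to 9003 counts in every library, so none was lost to the filter on low counts. The squamous identity in the labels was borne by the data: all 10 squamous markers were measured, KRT5 at 15038 to 24905 CPM and TP63 at 229 to 357 CPM. Defining leukocyte genes (PTPRC, AIF1, TYROBP, FCER1G), endothelial genes (PECAM1, CDH5, KDR, EMCN) and fibroblast genes (COL3A1, PDGFRA, PDGFRB, THY1, POSTN) had under 10 counts in every library, and AIF1, TYROBP, KDR, EMCN, COL3A1, THY1 and POSTN had none. Other genes of these lists were measured: COL1A1 reached 1764 counts, FAP 92.8, LUM 31 and DCN 21, and CD68 reached 503, CD74 390.0, ITGAM 87, CSF1R 82 and CD14 66 counts. The summed leukocyte list was 6093 to 9395 CPM in smTEADi against 2949 to 6199 CPM in Vehicle, and 8397 to 9252 CPM in pTEADi against 3229 to 4884 CPM in Control. Nearly all of these sums was S100A8 and S100A9, which squamous cells also express, and 5 of its 12 genes had under 10 counts in every library. The endothelial list, 6 of whose 7 genes had under 10 counts and whose sum was nearly all VWF, was at 36.3 to 64.3 CPM in smTEADi against 15.9 to 33.2 CPM in Vehicle, and at 30.8 to 42.6 CPM in pTEADi against 13.1 to 21.2 CPM in Control. The adipocyte list, with ADIPOQ, LEP and CIDEC at 0, was at 45.8 to 77.3 CPM in smTEADi against 39.6 to 43.1 CPM in Vehicle, and at 61.0 to 71.3 CPM in pTEADi against 42.5 to 55.9 CPM in Control. Different genes led these sums. FABP4 averaged 44.2 CPM in smTEADi against 23.5 in Vehicle, but 12.5 in pTEADi against 15.3 in Control. CFD averaged 10.8 CPM in smTEADi against 14.9 in Vehicle, but 46.6 in pTEADi against 30.4 in Control. The pericyte list, mostly CSPG4, was at 113 to 156 CPM in smTEADi against 167 to 236 CPM in Vehicle and overlapped between pTEADi and Control, while the fibroblast and muscle lists overlapped in both comparisons. The part of these markers in the results was not tested. The labels do not say how reads from the host were treated. In bulk tissue, fewer cells of a type and less RNA per cell cannot be told apart. Levels are given as CPM, counts scaled to the library size and by TMM, with the SD of 3 libraries. Each log2 fold change is treated over untreated and stands with its SE. The test was edgeR's quasi-likelihood test, adjusted by Benjamini-Hochberg over all genes, with 0.05 as the threshold.

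In pTEADi tumours, 6 of the 10 genes fell and none rose: FOS, FOSL1, FOSL2, JUN, EGR1 and IER3. Among all 14705 genes tested in that comparison 13.6% fell, 12.7% rose and 26.3% passed in either direction. The same 6 were the members whose pTEADi libraries all lay below all Control libraries, which held for 21.7% of all genes, and no member had all pTEADi libraries above all Control libraries (20.3% of all genes). They were also the members with an unadjusted p under 0.05, against 38.2% of all genes. The members' median log2 fold change was -0.36, against 0.00 over all genes. In smTEADi tumours, EGR1 fell and none of the other 9 passed, where 3.48% of 14829 genes fell, 2.02% rose and 5.5% passed in either direction. All smTEADi libraries lay below all Vehicle libraries for FOSL1 and EGR1 (17.3% of all genes) and above them for IER2 (15.7% of all genes). An unadjusted p under 0.05 was reached by FOSL1, FOSL2 and EGR1, against 27.8% of all genes. The members' median was 0.04, against 0.01 over all genes. EGR1 was the one member past the threshold in both comparisons.

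**Figure D1:**
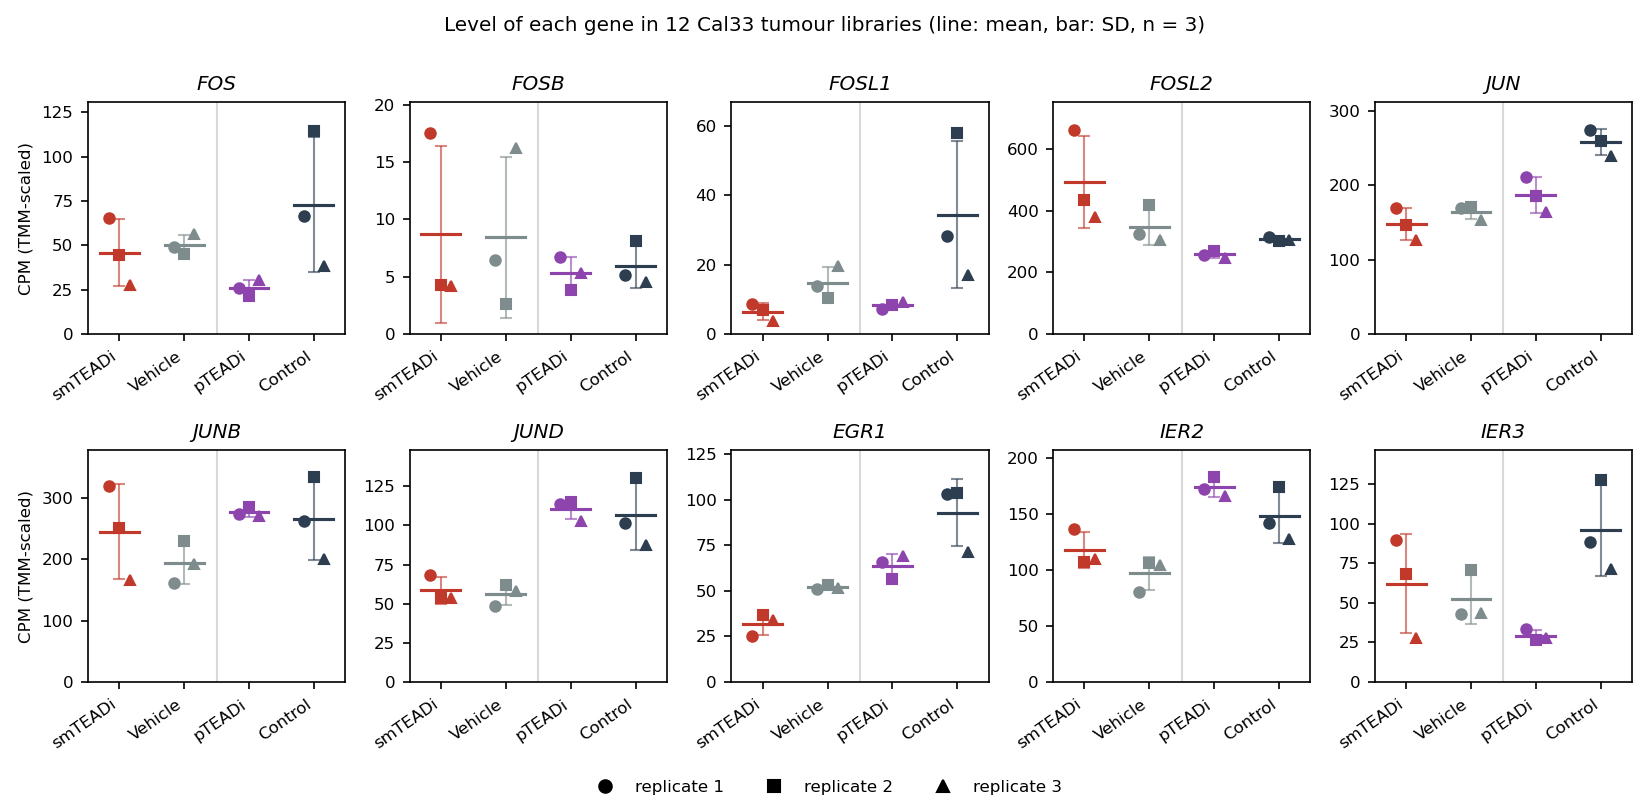
Level of each of the 10 genes in CPM (vertical axis, from 0, own scale per gene) in the 3 smTEADi, Vehicle, pTEADi and Control libraries; symbols are replicates, lines the mean and bars the SD. The pTEADi points of FOS, FOSL1, FOSL2, JUN, EGR1 and IER3 all lie below their Control points, and the smTEADi points of EGR1 and FOSL1 below their Vehicle points.

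FOS encodes the classic labile AP-1 subunit. It measured 26.1, 21.3 and 30.2 CPM in pTEADi tumours, against 66.3, 114 and 38.4 CPM in Control tumours. All pTEADi libraries were lower than the lowest Control library, and the Control libraries were far apart, with replicate 2 highest. FOS fell 2.82-fold with pTEADi (log2 fold change -1.49 ± 0.30, adjusted p = 0.00348), and the change was -1.02 without Control 2, still past the threshold. In the SW-682 experiment FOS had 65.1, 44.6 and 27.6 CPM in smTEADi, against 49.1, 45.1 and 56.2 CPM in Vehicle. The smTEADi libraries lay on both sides of the Vehicle libraries, with a log2 fold change of -0.13 ± 0.25 (95% interval -0.70 to 0.44, adjusted p = 0.773). The gene lies on chromosome 14, 75278826 to 75282230, plus strand (GRCh38, ENSG00000170345.10).

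FOSB, a close relative of FOS, had 6.71, 3.84 and 5.34 CPM in pTEADi and 5.10, 8.11 and 4.54 CPM in Control, where the groups overlapped (-0.16 ± 0.27, adjusted p = 0.701). In smTEADi it had 17.5, 4.27 and 4.19 CPM, against 6.45, 2.61 and 16.2 CPM in Vehicle. A single library of each of these groups, smTEADi 1 and Vehicle 3, stood far above the others, and the estimate was 0.03 ± 0.67 (adjusted p = 0.978). Its 95% interval was wide, -1.48 to 1.55, and held changes in either direction.

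FOSL1 encodes FRA-1, the AP-1 subunit most linked to invasive squamous carcinoma. It measured 7.16, 8.25 and 9.22 CPM in pTEADi tumours, against 28.1, 58.1 and 17.1 CPM in Control tumours. The pTEADi libraries were close together and all under the lowest Control library. This was the largest fold change among the 10 genes in either comparison, 4.19-fold lower (-2.07 ± 0.35, adjusted p = 0.00133), or -1.46 without Control 2. With SW-682, FOSL1 had 8.55, 6.84 and 3.84 CPM, against 13.9, 10.3 and 19.8 CPM in Vehicle, again without overlap. Its log2 fold change of -1.19 ± 0.31 had an adjusted p of 0.0534, just outside the threshold. It passed with DESeq2 (adjusted p = 0.00340), without a low-count filter (adjusted p = 0.000928) and without Vehicle 2 (adjusted p = 0.0264). FOSL1 spans 65892049 to 65900573 on the minus strand of chromosome 11 (ENSG00000175592.9).

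FOSL2, which encodes FRA-2, had the highest CPM of the FOS family genes, uncorrected for transcript length, and moved little in pTEADi tumours. Per kilobase of canonical transcript its Control libraries overlapped those of FOS, at 45.7 ± 1.16 against 34.7 ± 18.2 CPM per kb. FOSL2 levels were 257, 269 and 248 CPM in pTEADi, against 316, 301 and 304 CPM in Control. The groups were tight and did not overlap, and FOSL2 fell 1.19-fold (-0.25 ± 0.08, adjusted p = 0.0375). That call was lost with 1 spread for all 4 groups (adjusted p = 0.318), without a low-count filter (0.0679) and without Control 1, pTEADi 1, pTEADi 2 or pTEADi 3 (0.0885 to 0.134). In smTEADi it had 663, 435 and 381 CPM, against 323, 418 and 305 CPM in Vehicle. All smTEADi libraries were above the Vehicle mean, with smTEADi 1 highest, and the estimate of 0.50 ± 0.21 did not pass (adjusted p = 0.154), though it did without a low-count filter (adjusted p = 0.0466). Without smTEADi 1 it was 0.23.

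JUN encodes the founding JUN family subunit and is known to activate its own promoter through the variant AP-1 site shown above. It measured 212, 186 and 164 CPM in pTEADi tumours, against 275, 260.2 and 239.9 CPM in Control tumours. The groups were separate, and JUN fell 1.38-fold (-0.47 ± 0.10, adjusted p = 0.00610), a call that held without any single library. In smTEADi, JUN had 169.9, 147 and 126 CPM, against 169, 171 and 153 CPM in Vehicle. These groups overlapped (-0.16 ± 0.12, adjusted p = 0.433). JUN lies on the minus strand of chromosome 1, 58776845 to 58784048 (ENSG00000177606.8).

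JUNB and JUND, the JUN family members often described as weaker or opposing activators, did not pass in either comparison. JUNB had 274, 286 and 271 CPM in pTEADi, against 262, 335 and 201 CPM in Control (0.06 ± 0.15, 95% interval -0.26 to 0.37, adjusted p = 0.812). The pTEADi libraries all lay inside the Control range. In smTEADi it had 319.7, 250.4 and 166 CPM, against 161, 231 and 192 CPM in Vehicle (0.33 ± 0.22, adjusted p = 0.352). The groups overlapped through smTEADi 3, and the other smTEADi libraries lay above the Vehicle range. JUND had 114, 115 and 103 CPM in pTEADi, against 102, 130.4 and 87.2 CPM in Control (0.05 ± 0.13, interval -0.22 to 0.33, adjusted p = 0.797). It had 68.2, 53.5 and 53.9 CPM in smTEADi, against 48.5, 62.1 and 58.3 CPM in Vehicle (0.06 ± 0.13, interval -0.24 to 0.36, adjusted p = 0.818). JUND also differed between the experiments, with all 6 pTEADi and Control libraries above all 6 smTEADi and Vehicle libraries. EGR1 separated in the same way. The share of all genes that did so was not computed, so neither separation can be read as particular to its gene. The experiment and those groups cannot be told apart. JUNB shares 259 exon bases with HOOK2 on the opposite strand, a gene of up to 1967 counts, and the labels do not say whether counting used strand, so JUNB counts carry that uncertainty.

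EGR1 encodes the zinc finger factor that reports activity of the ERK pathway and serum response factor. It measured 25.3, 36.6 and 33.9 CPM in smTEADi tumours, against 51.1, 53.3 and 51.7 CPM in Vehicle tumours. Every smTEADi library was below every Vehicle library, and the Vehicle libraries were nearly equal. EGR1 fell 1.63-fold (-0.70 ± 0.14, adjusted p = 0.0365). The call was lost without Vehicle 1 (adjusted p = 0.134), Vehicle 3 (0.184) or smTEADi 3 (0.0523), fits in which no gene of the whole table passed, while the estimate stayed between -0.81 and -0.56. In pTEADi tumours it had 65.7, 56.6 and 69.1 CPM, against 103, 104 and 71.5 CPM in Control tumours. The groups did not overlap, though pTEADi 3 and Control 3 were close. EGR1 fell 1.46-fold (-0.54 ± 0.14, adjusted p = 0.0121), a call lost without Control 1 (adjusted p = 0.0629) or pTEADi 2 (0.0775). Over the 4 groups EGR1 was highest in Control, then pTEADi, Vehicle and smTEADi, each group clear of the next. The share of all genes with such a separation was not computed. A difference between experiments and one between groups cannot be told apart. The gene spans 138465479 to 138469303 on the plus strand of chromosome 5 (ENSG00000120738.8).

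IER3 encodes a short-lived regulator of survival and ERK signalling. It measured 33.3, 26.5 and 27.5 CPM in pTEADi tumours, against 88.3, 128 and 71.5 CPM in Control tumours. The pTEADi libraries were close together, and all lay far below the lowest Control library. IER3 fell 3.30-fold (-1.72 ± 0.18, adjusted p = 8.35e-05), the smallest adjusted p of the 10 genes, and the change was -1.46 without Control 2. In smTEADi it had 89.7, 68.6 and 28.1 CPM, against 43.0, 70.9 and 43.6 CPM in Vehicle. The smTEADi libraries straddled the Vehicle range (0.24 ± 0.36, interval -0.56 to 1.05, adjusted p = 0.694), and the estimate ran from -0.12 without smTEADi 1 to 0.58 without smTEADi 3. IER3 lies on the minus strand of chromosome 6, 30743199 to 30744548 (ENSG00000137331.12), and overlaps IER3-AS1 by 440 bases, a gene with at most 2.77 counts.

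IER2 encodes a nuclear protein induced with FOS. It had 172, 183 and 166 CPM in pTEADi and 142, 174 and 128 CPM in Control. The groups overlapped, and the estimate was above 0 without passing (0.23 ± 0.11, adjusted p = 0.149). It passed without Control 2 (0.36, adjusted p = 0.0101). In smTEADi it had 136, 107 and 109.7 CPM, against 79.9, 106 and 105 CPM in Vehicle. The smTEADi libraries were all above the Vehicle libraries, by a narrow margin for smTEADi 2 (0.28 ± 0.14, adjusted p = 0.224). IER2 shares 946 exon bases with an unnamed antisense gene that had at most 21.6 counts.

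Whether the effects differed between the inhibitors was tested as the pTEADi effect minus the SW-682 effect over all 12 libraries. None of the 10 genes passed, where 2 of 15460 genes did (0.0129%). At an unadjusted p under 0.05 there were 3 members, and 7.13% of all genes, and both DESeq2 and limma-voom called no member. They were IER3, with the largest difference of -1.96 ± 0.47 (adjusted p = 0.335), FOS at -1.36 ± 0.47 (adjusted p = 0.598) and FOSL2 at -0.75 ± 0.24 (adjusted p = 0.533). IER3 passed without smTEADi 3 (-2.30, adjusted p = 0.0140). For FOSL1, lower on average with each inhibitor, the difference was -0.87 ± 0.55 (interval -2.05 to 0.30), and for EGR1 it was 0.16 ± 0.21 (interval -0.29 to 0.62). Thus the calls of FOS, FOSL1, FOSL2, JUN and IER3 in pTEADi alone do not by themselves show a different response from that to SW-682.

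**Figure D2:**
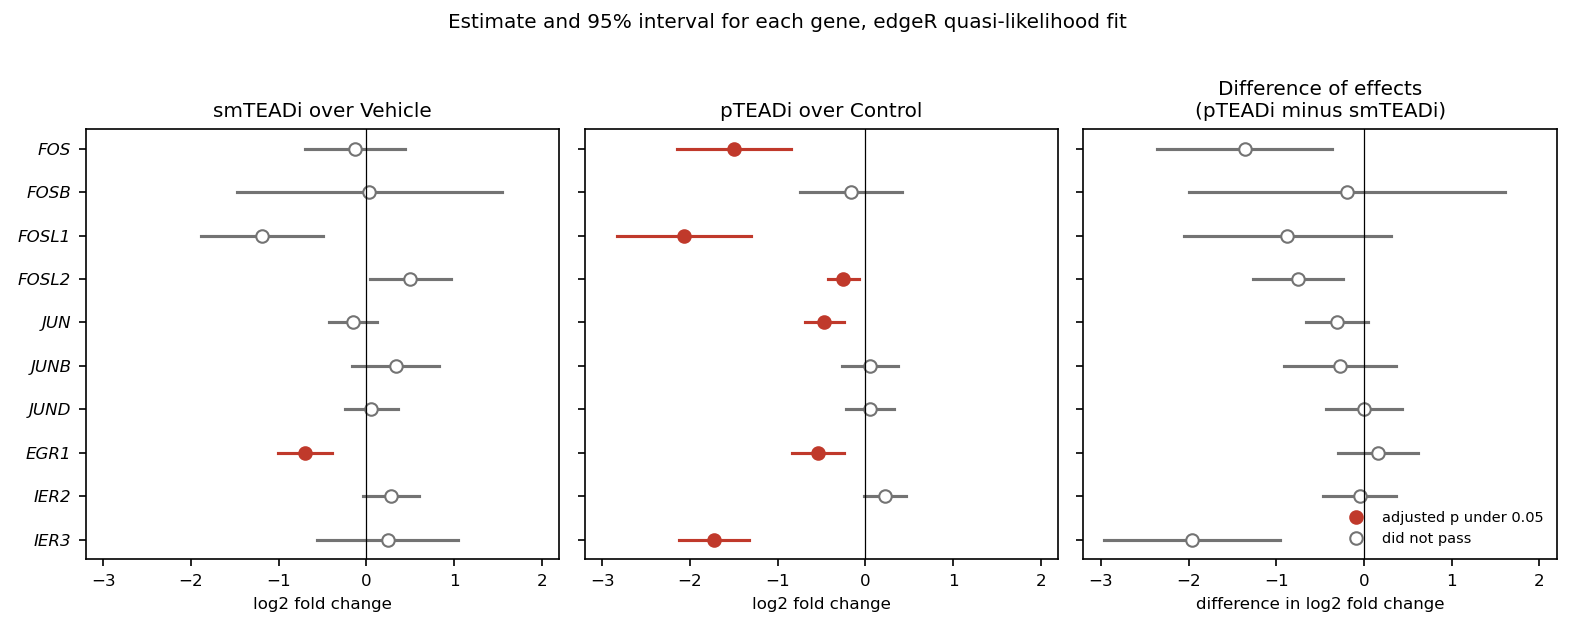
Log2 fold change of each gene (horizontal axis) with its 95% interval for smTEADi over Vehicle, pTEADi over Control, and the difference of the 2 effects; filled red points passed an adjusted p of 0.05. FOSL1 and IER3 stand farthest left in the pTEADi panel, at -2.07 and -1.72, and no point is filled in the panel of differences.

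RNA levels of the 10 genes were set against each other per kilobase of canonical transcript, which allows genes to be compared. Protein was not measured, so these levels do not give the make-up of AP-1 dimers. JUNB was the most abundant of the 10 in all 4 groups, at 134 ± 42.0 CPM per kb in smTEADi, 106 ± 19.0 in Vehicle, 151 ± 4.31 in pTEADi and 145 ± 36.6 in Control. FOSB was the lowest in all 4 groups, at 2.30 ± 2.04, 2.23 ± 1.85, 1.40 ± 0.38 and 1.57 ± 0.51 CPM per kb in the same order. FOSL1 was ninth in each group. Between them the order changed: after JUNB came FOSL2 in smTEADi and Vehicle, IER2 in pTEADi and JUN in Control. Most neighbours in the middle of the order overlapped in smTEADi, Vehicle and Control. In Control, no gene from JUN down to EGR1 had all its libraries above those of the next. In pTEADi most were separate, as IER2, JUND, FOSL2, EGR1 and FOS each had all libraries above those of the next. With the merged exon length of all transcripts in place of the canonical one, FOSL2 came after JUNB in pTEADi too.

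Per kilobase, the 4 FOS family genes summed to 57.0 ± 1.01 CPM in pTEADi, against 102 ± 30.7 CPM in Control, and to 101 ± 34.2 CPM in smTEADi, against 86.6 ± 4.71 CPM in Vehicle. The 3 JUN family genes summed to 266 ± 12.5 CPM in pTEADi, against 279.8 ± 50.9 CPM in Control, and to 209.8 ± 52.3 CPM in smTEADi, against 186 ± 23.0 CPM in Vehicle. The groups separated for the FOS family sum in pTEADi and Control, whose ranges were 56.1 to 58.1 and 74.8 to 135, and overlapped for the other sums. FOSL2 made up 67.5 ± 3.96% of the FOS family sum in pTEADi, against 47.5 ± 13.8% in Control, and 73.1 ± 3.77% in smTEADi, against 59.9 ± 8.62% in Vehicle. FOSL1 made up 8.46 ± 0.97% in pTEADi, against 18.6 ± 6.03% in Control, and 3.69 ± 0.67% in smTEADi, against 9.96 ± 3.25% in Vehicle. FOSL1 was a smaller part of the family in all treated libraries of both experiments than in any of their untreated libraries.

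The ratio of the 2 FRA genes needs no scaling between libraries. FOSL1 had 2.78, 3.06 and 3.72 counts per 100 FOSL2 counts in pTEADi, against 8.92, 19.3 and 5.63 in Control. It had 1.29, 1.57 and 1.01 in smTEADi, against 4.29, 2.46 and 6.47 in Vehicle. The groups did not overlap in either experiment, and the mean log2 differences were -1.64 and -1.69 for pTEADi and smTEADi in that order. A two-sided exact permutation test gave p = 0.1 in each, the smallest that 3 against 3 libraries allow. In pTEADi both genes fell. In smTEADi the ratio joins FOSL1 at -1.19 ± 0.31 with FOSL2 at 0.50 ± 0.21, neither past the threshold. The share of gene pairs whose ratios separate in this way was not computed. JUNB counts per 100 JUN counts were 129, 154 and 165 in pTEADi, against 95.3, 129 and 83.7 in Control (log2 difference 0.56, exact permutation p = 0.1). They were 188, 170.2 and 131 in smTEADi, against 95.2, 135 and 125 in Vehicle, where 1 smTEADi library fell inside the Vehicle range (0.46, exact permutation p = 0.2).

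**Figure D3:**
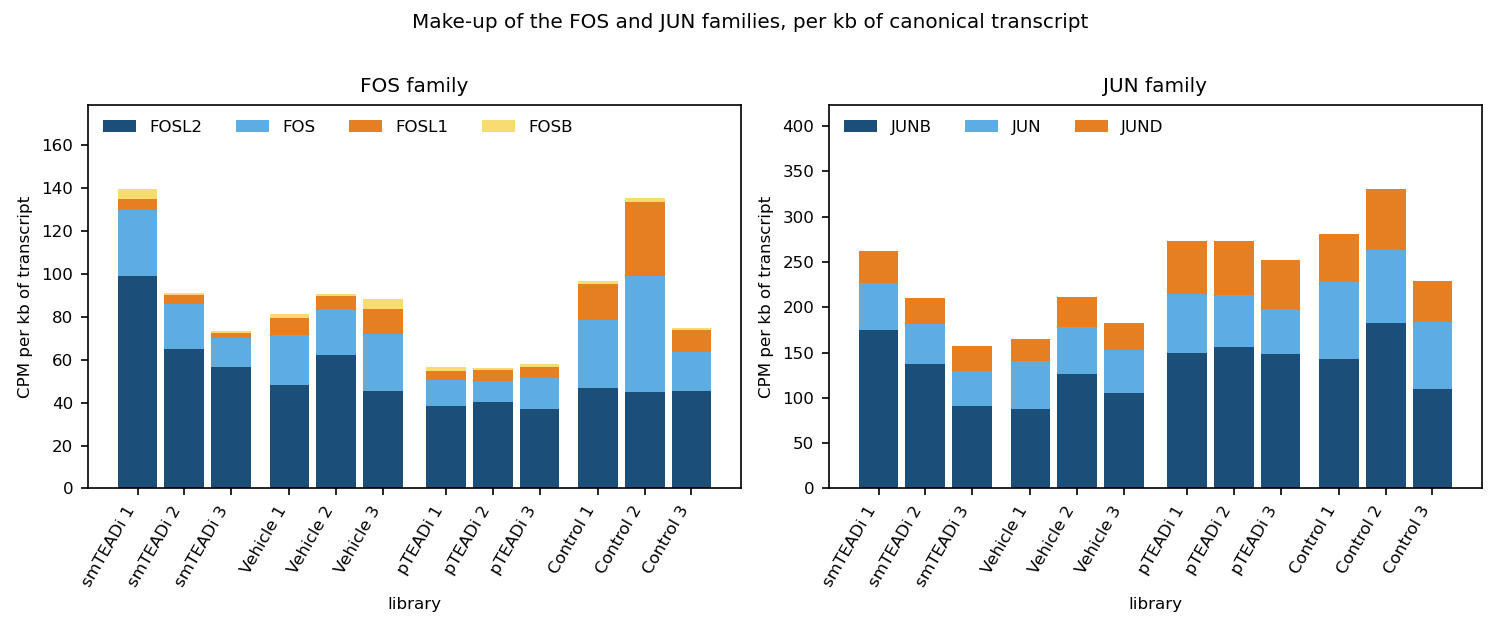
Stacked CPM per kb of canonical transcript (vertical axis) of the FOS family genes (left) and JUN family genes (right) in each of the 12 libraries. FOSL2 is the largest block of every FOS family bar except Control 2, where FOS is, and JUNB the largest of every JUN family bar; the FOSL1 block is tallest in Control 2.

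Within some groups most of the 10 genes were highest, or lowest, in the same library. Control 2 was the highest Control library for 8 of the 10 genes, against 37.4% of all genes, and Control 3 the lowest for 9, against 36.8%. In smTEADi, replicate 1 was the highest for 9 genes, against 39.6% of all genes, and replicate 3 the lowest for 7, against 31.3%. Within Control, JUN and FOSL2 were the exceptions, each highest in Control 1. Within smTEADi, EGR1 was the exception and was lowest in replicate 1. In Vehicle, replicate 2 was the highest for 7 genes, against 36.2% of all genes, and replicate 1 the lowest for 5, against 32.9%. The pTEADi libraries showed no such order, with 3, 4 and 3 members highest in replicates 1, 2 and 3. Control 2 did not carry the calls of FOS, FOSL1 and IER3, which passed without it, with estimates nearer to 0.

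**Figure D4:**
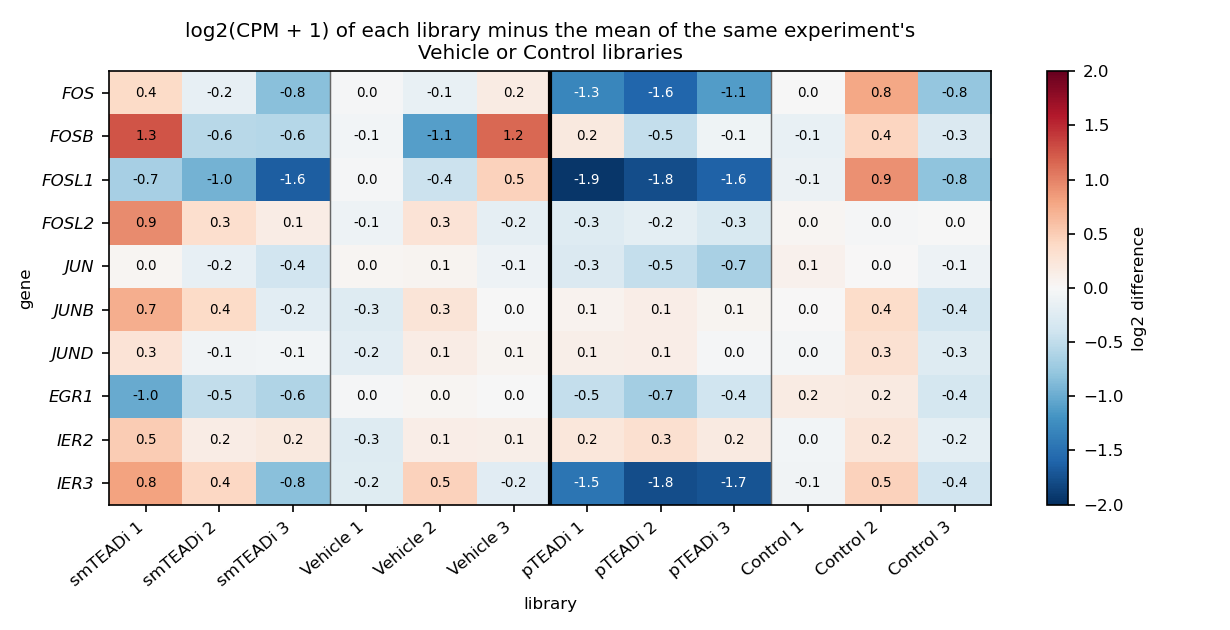
Each cell is log2(CPM + 1) of 1 library minus the mean of the Vehicle or Control libraries of its experiment, for each gene (rows) and library (columns). The pTEADi columns are blue for FOS, FOSL1 and IER3 in all 3 libraries, while the Control 2 and Control 3 columns are of opposite sign for every gene but FOSL2.

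Genes of the surrounding pathway were read from lists chosen with earlier results of these data known, and are given as counts and medians. In pTEADi tumours 13.6% of all genes fell and 12.7% rose, and in smTEADi tumours 3.48% fell and 2.02% rose, and each list's counts are to be read against these shares. Among 9 tested dimer partners of AP-1 and related zipper genes, ATF3, a stress-induced partner of JUN, fell in pTEADi to 8.30 ± 1.73 CPM, against 22.1 ± 9.88 CPM in Control (-1.41 ± 0.27, adjusted p = 0.00269), and MAFK fell (-0.40 ± 0.11, adjusted p = 0.0158). In all, 2 of the 9 fell and 1 rose, where 13.6% of all genes fell and 12.7% rose, so these counts were near the background. The other 6 did not pass. The falls numbered 1 without pTEADi 2 or pTEADi 3, and without Control 3 there were 3 falls and 2 rises. The list's median was -0.08, or 0.04 without Control 2. In smTEADi none of the 9 passed, and ATF3 was at -0.97 ± 0.33 (adjusted p = 0.0991). MAFK is uncertain, since its call was lost in 2 of the 6 fits that left out 1 library.

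Of 17 other immediate early factor genes, 7 fell and 1 rose in pTEADi (13.6% and 12.7% of all genes), with a median of -0.39, or -0.13 without Control 2. MYC, the growth factor-induced growth regulator, fell to 84.9 ± 3.88 CPM in pTEADi, against 139 ± 30.2 CPM in Control (-0.72 ± 0.13, adjusted p = 0.00214). KLF6 (-0.66 ± 0.13), ATF3, NR4A1 (-1.72 ± 0.35), CSRNP1 (-1.12 ± 0.26), NFIL3 (-0.55 ± 0.12) and SNAI2 (-0.52 ± 0.12) fell too. NR4A1, CSRNP1, NFIL3 and SNAI2 are named after their values were seen, to complete the 7. IER5, a relative of IER2, rose in both experiments, to 194 ± 14.9 CPM in pTEADi, against 129 ± 6.90 CPM in Control (0.58 ± 0.09, adjusted p = 0.000689), and to 145 ± 13.1 CPM in smTEADi, against 106 ± 4.89 CPM in Vehicle (0.46 ± 0.10, adjusted p = 0.0412). It was the only gene of this list to pass with SW-682, where 2.02% of all genes rose and 3.48% fell and the median was -0.03, and that call remained in 2 of the 6 fits that left out 1 library.

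Immediate early genes that encode no transcription factor went in both directions. In pTEADi, 15 of 39 fell and 6 rose (13.6% and 12.7% of all genes), the rises near the background share, with a median of -0.36; without Control 2, 11 fell and 7 rose, with a median of -0.16. The falls numbered 9 without any 1 of the pTEADi libraries, and the rises 2 without Control 1. CXCL1, a neutrophil chemokine, fell to 0.45 ± 0.21 CPM in pTEADi, against 6.38 ± 4.06 CPM in Control (-3.78 ± 0.55, adjusted p = 0.000545). CCN1, a matricellular gene that is a target of both serum response factor and TEAD, fell (-1.42 ± 0.21, adjusted p = 0.000624), as did PHLDA1 (-1.08 ± 0.21, adjusted p = 0.00324). BTG2, an antiproliferative gene, rose to 72.0 ± 4.26 CPM in pTEADi, against 34.1 ± 8.66 CPM in Control (1.08 ± 0.15, adjusted p = 0.000493). In smTEADi, CCN1 (-1.52 ± 0.20, adjusted p = 0.0365) and CXCL1 (-2.68 ± 0.58, adjusted p = 0.0400) fell and the other 35 of 37 did not pass, with a median of 0.06, where 3.48% of all genes fell. CXCL1 was near the limit of detection in smTEADi, at 0.20 ± 0.17 CPM. Of the 6 fits that left out 1 SW-682 experiment library, CCN1 passed in 3 and CXCL1 in 2.

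Of the 8 genes for serum response factor, its ternary complex partners, their MRTF cofactors and the CREB and ATF1 factors, 4 fell in pTEADi and none rose (13.6% and 12.7% of all genes), with a median of -0.25. They were SRF (-0.31 ± 0.09, adjusted p = 0.0217), ELK3 (-0.37 ± 0.10, adjusted p = 0.0213), MRTFA (-0.52 ± 0.09, adjusted p = 0.00170) and ATF1 (-0.55 ± 0.13, adjusted p = 0.0108). SRF encodes the factor that binds the CArG boxes of the EGR1 promoter, and it measured 55.9 ± 3.46 CPM in pTEADi, against 69.3 ± 3.02 CPM in Control. None of the 8 passed in smTEADi, where MRTFA was at -0.28 ± 0.09 (adjusted p = 0.0871) and the median was -0.16. The number of falls in pTEADi went to 1 without pTEADi 2.

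Textbook AP-1 target genes went in both directions in pTEADi: of 30 tested, 13 fell and 8 rose (13.6% and 12.7% of all genes), with a median of -0.26, or -0.13 without Control 2. ITGA5, the fibronectin receptor subunit, fell to 48.2 ± 10.2 CPM in pTEADi, against 245 ± 129.6 CPM in Control (-2.35 ± 0.30, adjusted p = 0.000264). The collagenase MMP13 rose to 119.9 ± 12.5 CPM in pTEADi, against 45.9 ± 13.8 CPM in Control (1.38 ± 0.18, adjusted p = 0.000306), and the stromelysin MMP10 rose (1.57 ± 0.11, adjusted p = 1.25e-05). The rises also held MMP1, CCND1 and the cornified envelope genes IVL, FLG, SPRR1A and SPRR1B, named after their values were seen. The falls outnumbered the rises, and only ITGA5 is named among them for pTEADi. In smTEADi, 3 of 30 fell and none rose (3.48% and 2.02% of all genes), among them PLAUR, the urokinase receptor (-1.15 ± 0.20, adjusted p = 0.0365), and ITGA5 (-1.07 ± 0.24, adjusted p = 0.0413). The list's median was -0.16. Without Vehicle 2, 5 of the list fell and 6 rose, and without Vehicle 1, Vehicle 3 or smTEADi 3 none of any list passed, as no gene of the whole table did. PLAUR passed in 3 of the 6 fits that left out 1 library and ITGA5 in 2. No gene of any of these lists passed in the test of the difference between inhibitors.

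**Figure D5:**
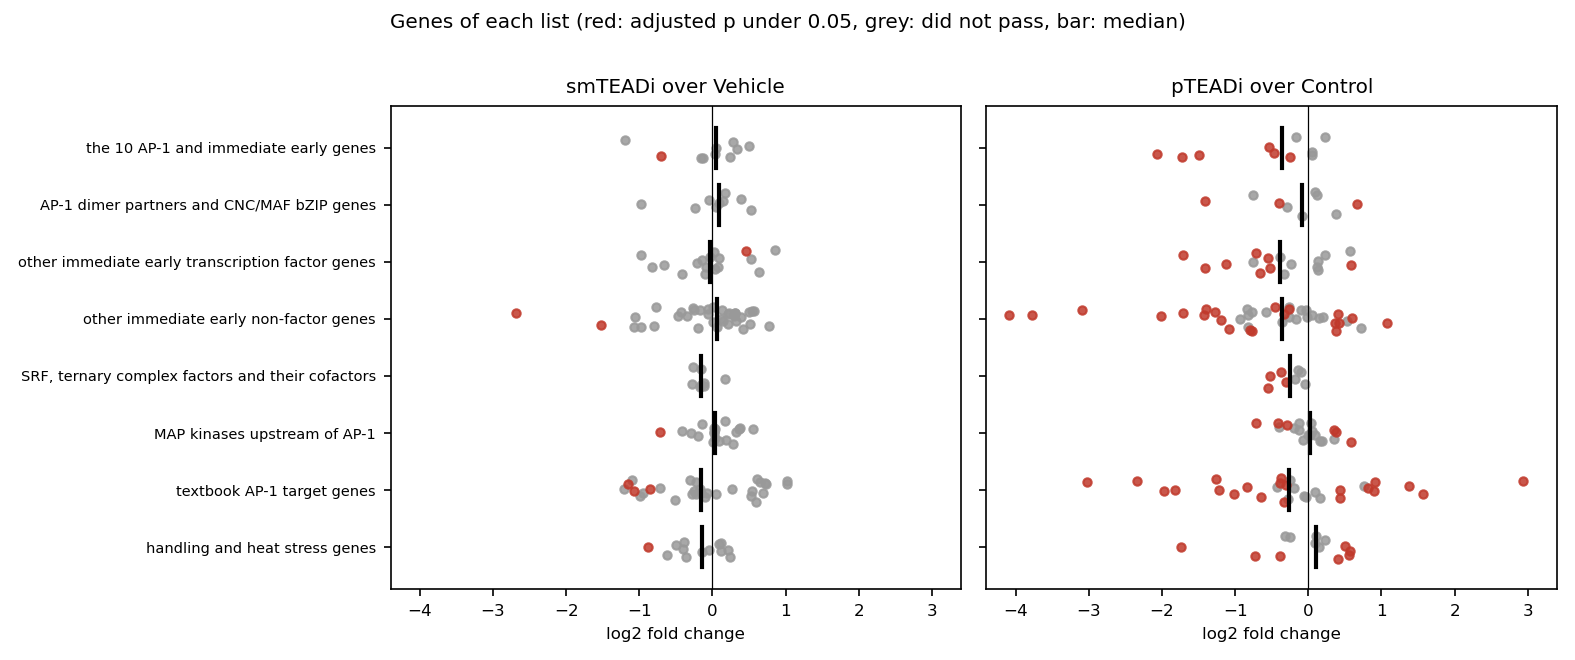
Log2 fold change (horizontal axis) of each tested gene among the 10 genes and 7 lists for smTEADi over Vehicle (left) and pTEADi over Control (right); red points passed an adjusted p of 0.05 and bars are medians. In the pTEADi panel the medians of the 10 genes and of both immediate early lists lie near -0.36 to -0.39, while red points of the AP-1 targets stand on both sides of 0.

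The genes whose profile over the 12 libraries was nearest to each member were found by the root mean square difference of centred log2(CPM + 1) values among 10619 protein-coding genes of at least 5 CPM. Nearest to FOS were F3, which encodes tissue factor (0.20), and the metallothionein MT1X (0.23), where the median gene was at 0.69. Nearest to FOSL1 were ATF3 (0.33) and PLAUR (0.33), against a median of 0.95. Nearest to IER3 were DDIT4, a stress-induced inhibitor of mTORC1 (0.14), and PFKFB3, a glycolytic regulator (0.26), against a median of 0.77. FOSB had no close match (0.49 for both PARD6B and XDH). The other members were matched within 0.13 by SH3BP2 and HECA for FOSL2, CIC and NLGN2 for JUN, TBKBP1 and KIFC3 for JUNB, VWA1 and PPP1R16A for JUND, ATAD3A and FADS3 for EGR1, and CDC34 and NECTIN2 for IER2. Profiles share group, experiment and library effects, so these values describe likeness only.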

How the data were processed

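RNA from 12 tumour samples was sequenced in paired reads of 150 bases. Per the labels and the submitters' processing notes, reads were aligned to GRCh38 with STAR 2.7.9a on Gencode 38 gene models and gene counts were estimated with RSEM 1.3.1. The authors deposited RSEM's expected counts of each gene without scaling; in each library 6.77% to 7.27% of the values had a fraction. Strand setting and host reads are not given in the sources used here. Names, positions and transcript lengths came from Gencode 44 (GRCh38), which gave 60463 of 60649 IDs a symbol.

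Samples were grouped by their labels. Rounded counts were tested with edgeR 4.0.16 in R 4.3.3: filterByExpr (minimum count 10), TMM scaling, two-sided quasi-likelihood F test of each treatment against its own control, and of the difference of effects in 1 fit of all 12 libraries, with Benjamini-Hochberg adjustment over all genes tested. The SE is the log2 fold change divided by the square root of F. The tests were tried on simulated data. CPM was TMM-scaled over all 12 libraries, so levels across the 2 tables rest on that joint scaling. Within groups no library repeated another: pairs differed by at least 7.42 times the counting variance (chi-square per degree of freedom).

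The members and the 7 pathway and 7 marker lists were chosen with earlier results of these data known. Named genes were the 10 members, up to 4 genes per list and comparison with the smallest p, and the 2 nearest protein-coding profiles per member. Some genes that this rule names are not reported here. Alternatives were upper-quartile or RLE scaling, a filter of 10 counts in 3 libraries or none, DESeq2 1.42.0, limma-voom (limma 3.58.1), a replicate block, 1 fit of all 4 groups, an adjusted p of 0.01, leaving out each library and, added after seeing the data, merged exon lengths.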

Additional observations from a re-analysis of the deposited data

How the results depend on the processing

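Of the 500 alternative values of the members' log2 fold changes, 447 kept their direction and side of the threshold, 16 lost a call, 10 gained one and 27 turned in sign, all of the last for genes that had not passed. The SW-682 comparison depended most on the processing. Its 816 genes and 1 member called became 1876 and 2 with DESeq2, 2101 and 3 without a low-count filter, 2303 genes with 1 fit of all 4 groups, and 0 and 0 at an adjusted p of 0.01. For pTEADi, 3864 genes became 2138 at 0.01. For the difference, 2 genes became 37 with DESeq2, 377 without a low-count filter (with 4 members, FOS, FOSL1, FOSL2 and IER3) and 0 at 0.01. The causes were not tested. Replicate numbers were not taken as pairs, since same-number deviations correlated at -0.18 to 0.17; with the number as a replicate block, SW-682 gave 0 genes and 0 members (EGR1 -0.72, adjusted p = 0.0828), pTEADi 3707 and 5 (without FOSL2, adjusted p = 0.0604) and the difference 0 genes. Leaving out each library gave 0 to 1622 genes and 0 to 2 members for SW-682, 2325 to 4379 and 4 to 7 for pTEADi, and 0 to 20 and 0 to 1 for the difference.

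Signs turned without 1 library for SW-682 in FOS (-0.47 to 0.12), FOSB (-0.99 to 0.93), JUND (-0.068 to 0.13) and IER3 (-0.12 to 0.58), for pTEADi in FOSB (-0.36 to 0.13), JUNB (-0.11 to 0.25) and JUND (-0.070 to 0.22), and for the difference in FOSB (-1.08 to 0.83), JUND (-0.12 to 0.17) and IER2 (-0.15 to 0.083). The JUND difference, -0.00072, was 0.00012 with 10 counts in 3 libraries, 0.020 with limma-voom, 0.0030 without a filter, 0.0079 with the replicate block and 0.0073 with upper-quartile scaling. Depth limits FOSB most, at 37 to 238 counts a library.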

Other observations

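Kinases upstream of AP-1 and genes of handling and heat stress were read in the same fits. Of 19 MAP kinase pathway genes tested, 3 rose and 3 fell in pTEADi (12.7% and 13.6% of all genes, so near the background), with a median log2 fold change of 0.02; 1 rose and 1 fell without Control 1 or pTEADi 2, and 1 fell without pTEADi 1. RPS6KA1, which encodes the ERK-activated kinase RSK1, fell to 63.7 ± 2.11 CPM in pTEADi, against 104 ± 9.45 CPM in Control (-0.72 ± 0.09, adjusted p = 0.000220), and to 40.1 ± 6.13 CPM in smTEADi, against 65.7 ± 5.38 CPM in Vehicle (-0.71 ± 0.13, adjusted p = 0.0365). It was the 1 gene of the list to pass with SW-682 (3.48% of all genes fell), in 3 of the 6 fits without 1 library. The stress kinase gene MAPK13 rose in pTEADi (0.58 ± 0.12, adjusted p = 0.00505), and MAPK9, which encodes JNK2, fell (-0.41 ± 0.11, adjusted p = 0.0138), a call lost in 3 of 6 fits without 1 library.

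Of 13 handling and heat stress genes, which often move with immediate early genes when tissue is processed, 4 rose and 3 fell in pTEADi (12.7% and 13.6% of all genes), with a median of 0.10 (2 rose without Control 1, pTEADi 1 or pTEADi 2), and 1 fell in smTEADi (3.48% of all genes), with a median of -0.15. The small heat shock gene HSPB1 rose in pTEADi (0.57 ± 0.12, adjusted p = 0.00543) and DNAJB1 rose (0.41 ± 0.09, adjusted p = 0.00590). HSPD1, a mitochondrial chaperonin gene, fell in pTEADi (-0.73 ± 0.08, adjusted p = 9.40e-05) and in smTEADi (-0.88 ± 0.20, adjusted p = 0.0443, a call that stayed in 1 of the 6 fits without 1 library). DDIT4, whose profile was nearest to that of IER3, fell to 274 ± 48.4 CPM in pTEADi, against 916 ± 217 CPM in Control (-1.74 ± 0.17, adjusted p = 5.27e-05). The part of tissue handling in the results on immediate early genes was not tested.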
